A study of Mus musculus with 8 samples.

Results

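Flanking lost regions are stretches of acetylated histone H3 (H3ac) that had peaks in both Gel libraries and in neither CuNZ@Gel library, and whose edge lay 5 kb or less from the edge of a region with peaks in all 4 libraries. The latter are called retained regions below. Merging the 4 peak lists gave 81544 regions, of which 9781 were Gel-only, and 3845 of these, or 39.3%, were flanking. The other 5936 Gel-only regions lay farther away. For orientation, both Gel libraries had peaks in 39317 regions, and 24.9% of these were Gel-only. The regions were chosen by peak presence in Gel against CuNZ@Gel and by distance, so these counts describe them and test nothing. "Lost" means absent from the CuNZ@Gel peak lists.

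The libraries came from RAW 264.7, an established mouse macrophage-like cell line, immunoprecipitated with an antibody against acetylated H3. Cells of the Gel group carried the treatment label Gel and those of the other group the label CuNZ@Gel, a nanozyme hydrogel made for diabetic wounds according to the title of the series. The labels give a 48 h exposure to extracts, worded for CuNZ@Gel only and repeated for every sample. Each group had 2 libraries. No label speaks of separate cultures, and the spread within a group may therefore be technical. The peak lists name no genes and the gene table at hand is of another build, so neither genes nor marker genes of the cell line were looked up. All positions are on GRCm39. Where 2 values are given for a group, they are those of replicates 1 and 2 in this order.

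Acetylation of lysines in the tail of histone H3 weakens the hold of the histone on DNA and gives binding sites to bromodomain proteins. The mark is laid down by acetyltransferases at active promoters and enhancers, where acetylated nucleosomes sit on either side of an open stretch bound by factors. At active genes it often spreads outward from that stretch, so that a strong centre is followed by weaker shoulders. A peak list turns such a profile into separate intervals, and a shoulder is listed only where its signal clears the caller's threshold.

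The deposited lists differed in depth, which bears on every result below. As the commonest background of a list, the Gel libraries had 4.62 and 4.28 fragments, against 3.45 and 2.46 in those of CuNZ@Gel. The lists held 58612 and 60483 peaks for Gel and 40075 and 34693 for CuNZ@Gel. Depth and treatment cannot be told apart in these libraries. Heights below are summit fragments divided by the background of the library.

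The rule placed flanking lost regions within 5 kb of a retained neighbour. The gap had a median of 1482 bp, with quartiles of 362 and 2957 bp, and 1176 regions, or 30.6%, lay within 500 bp. Retained regions lay on both sides within 5 kb for 541 of them (14.1%). The neighbours were 3801 retained regions, 17.3% of the 21909 in all. A single flanking lost region was found beside 3274 of these, 2 beside 474, 3 beside 48 and 4 beside 5. They lay to the left of the nearest retained region in 1913 cases and to the right in 1932, nearly equal numbers.

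Lost regions lay near a retained region about as often as regions that CuNZ@Gel kept in part. Within 5 kb of a retained region lay 39.3% of Gel-only regions (95% Wilson interval 38.3 to 40.3%). For the 7627 partly kept regions, which had peaks in both Gel libraries and 1 CuNZ@Gel library, this was 38.9% (37.8 to 40.0%). For the 259 CuNZ-only regions it was 34.7% (29.2 to 40.7%), and 44.6% of retained regions had another one within 5 kb (43.9 to 45.2%). At the shortest distances the classes stood further apart. Within 500 bp of a retained region lay 12.0% of Gel-only regions, 14.8% of those with 1 CuNZ@Gel peak and 25.2% of retained regions. These intervals cover counting error only, and the classes come from the same 4 lists.

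**Figure D1:**
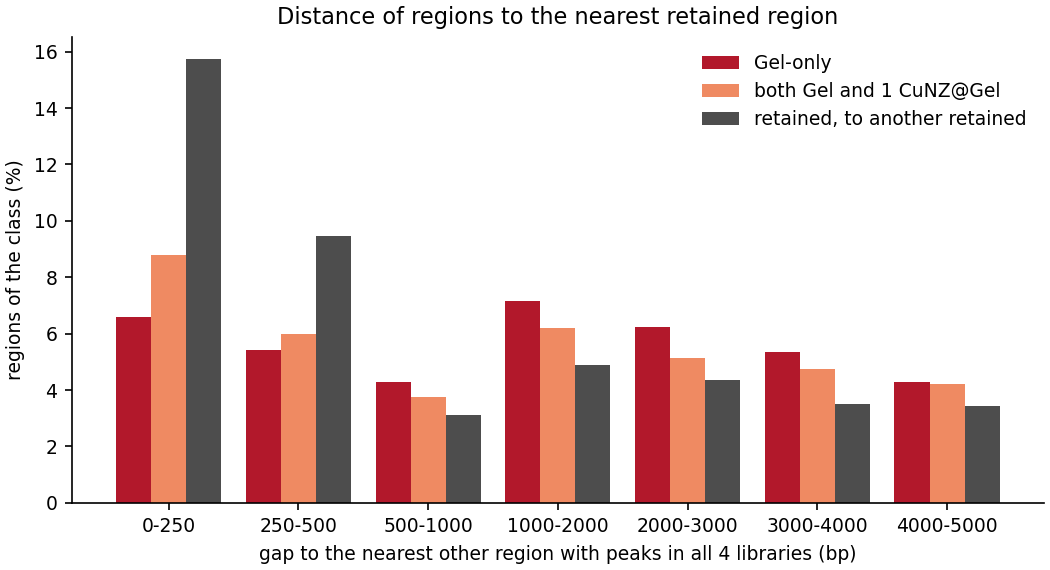
Share of each class of regions (y axis, %) by the gap to the nearest other region with peaks in all 4 libraries (x axis, bp, classes of unequal width). Gel-only regions had their largest share, 7.16%, at 1000 to 2000 bp, whereas 15.7% of retained regions had another retained region within 250 bp.

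The limit of 5 kb cuts through a continuous range of distances. The flanking regions just inside it, on chromosome 13 from 30970341 to 30971119 and on chromosome 6 from 128350343 to 128351541, both had a gap of 4998 bp. Their heights were 5.63 and 5.60, and 3.90 and 3.97, in the Gel libraries. The Gel-only regions just outside it, on chromosome 11 from 78409689 and on chromosome 7 from 28635922, had gaps of 5001 and 5006 bp. Heights there were 3.25 and 3.97, and 3.90 and 3.50.

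Flanking lost regions were as weak in Gel as the lost regions farther away. The median height was 4.12 in Gel replicate 1 and 4.20 in Gel replicate 2, and the same values were found for the other Gel-only regions in both libraries. This corresponds to a median of 19 and 18 fragments at the summit. Between the quartiles, heights ran from 3.68 to 4.77 in replicate 1 and from 3.73 to 4.90 in replicate 2 in both classes. The authors' fold enrichment had medians of 3.38 and 3.41 in either class. Whole fragments make heights move in steps, so small differences are easier to see in the means, which were 4.37 and 4.39 for flanking regions and 4.27 and 4.32 for the others. The difference thus had the same sign in both Gel libraries and was small beside the quartile range. Since Gel peaks entered the choice of regions, no test was made.

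Median heights were larger for the nearest flanking regions. Those within 500 bp of a retained region had median heights of 4.33 and 4.44 in the Gel libraries, against 4.12 and 4.20 for those over 500 bp away. Regions with 1 CuNZ@Gel peak were higher than both, with 4.77 and 4.90. The neighbouring retained regions had 10.4 and 10.3. Along the order from flanking lost to partly kept to retained, height thus rose in both libraries. These classes were set by how many CuNZ@Gel lists held a peak, so the rise describes them and tests nothing. Local background over 2 times that of the library was found at 0.312% and 0.390% of flanking regions in the Gel libraries, and at 0.152% and 0.202% of the other Gel-only regions. Its part in the heights was not tested. The heights of a region in the 2 Gel libraries correlated at a Pearson r of 0.621 over the 3845 flanking regions and of 0.545 over the others. These are values across regions that share their libraries, given as a description.

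**Figure D2:**
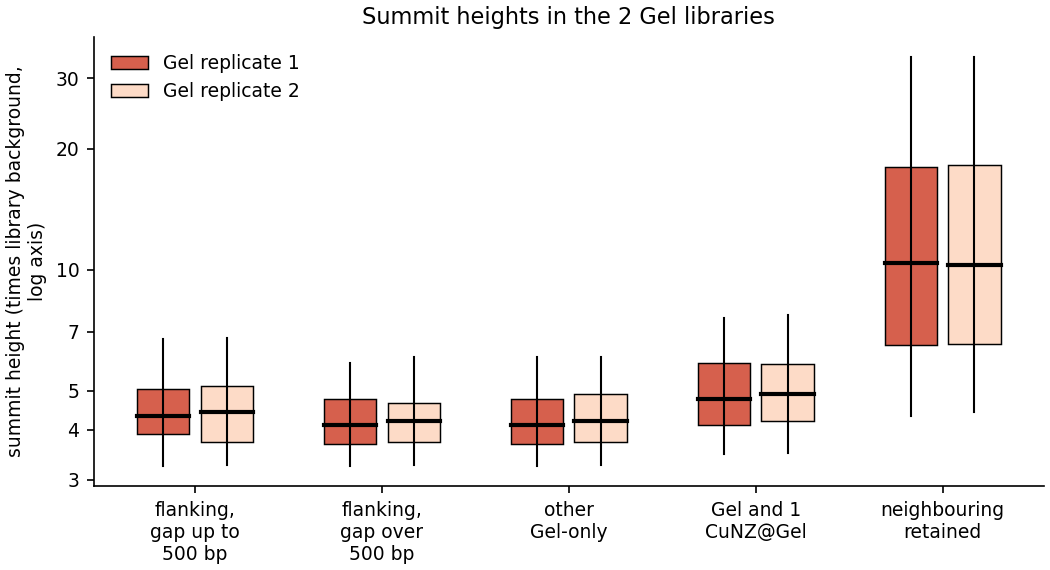
Summit height over library background (y axis, log scale) in the Gel libraries for 5 kinds of regions. Boxes span the quartiles, thick lines are medians and thin lines run from the 5th to the 95th percentile of regions; flanking regions over 500 bp away and other Gel-only regions have the same medians of 4.12 and 4.20.

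Lost shares near and far from retained regions followed the same course over strength. All 39317 regions listed in both Gel libraries were divided by mean Gel height into 10 groups of like size. In the weakest group 78.1% of regions near another retained region were lost, against 74.9% of those farther away. In group 3 the shares were 49.9% and 46.3%, and in group 5 they were 20.2% and 20.7%. From group 6 upward, both shares fell to 7.36% and 6.77% or less. The share was larger near retained regions in 8 of the 10 groups, and the mean difference over groups was 1.22 percentage points. In groups 9 and 10, the larger share rested on 2 and 1 lost regions near, against 0 farther away in each. Loss and distance both entered the choice of regions, so this is a description with no test. Without strength groups the order was the opposite, with 23.2% lost near and 26.1% lost farther away. The mean difference did not hold in every setting: it was -0.214 points with peaks at or above the median score of their list. It was -0.0379 points without Gel replicate 1, 0.209 points without Gel replicate 2 and 0.591 points without CuNZ@Gel replicate 2. Of the flanking lost regions, 95.1% fell into the 5 weaker groups, as did 96.5% of the others.

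**Figure D3:**
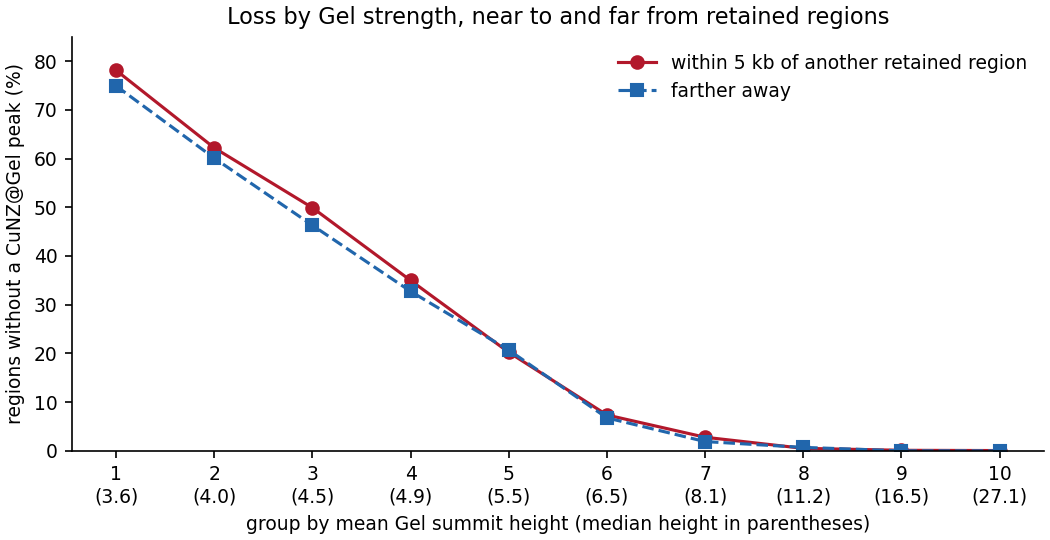
Share of regions without a CuNZ@Gel peak (y axis, %) in 10 groups of regions by mean Gel summit height (x axis, weakest to strongest). Near and far regions followed the same descending course, from 78.1% and 74.9% in the weakest group to 0.512% and 0.707% in group 8.

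Thinning left a peak at most flanking regions in each Gel library taken alone, and in both libraries at 53.2% of them. As deposited, their median −log10 p was 6.74 and 6.51, where the lowest in either Gel list was 3.12. When summit fragments were thinned to the background of CuNZ@Gel replicate 2 and held to its p limit, 71.3% of flanking regions still had a peak in Gel replicate 1 and 71.9% in Gel replicate 2. Both libraries kept a peak in 53.2% of flanking and 50.7% of other Gel-only regions. Neither kept one in 9.99% and 10.3%. The classes thus differed by less than 3 percentage points in each of these shares. Thinning acts on the summit only and leaves peak widths as deposited. The rule required a peak in both Gel libraries, and these shares are given for Gel-only regions alone. They describe the regions, and the part of depth in the loss was not tested.

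Flanking lost regions were slightly wider than the others, and most were a single peak. The merged width had a median of 480 bp against 455 bp. Bases under peaks had medians of 345 and 353 bp in the Gel libraries, against 327 and 341 bp. The difference had the same sign in both libraries. Widths over 1000 bp were found for 217 flanking regions (5.64%) and for 178 of the 5936 others. More than 1 peak was listed at 92 flanking regions in Gel replicate 1 and at 79 in replicate 2, which is 2.39% and 2.05%. Within 500 bp of a retained region the median merged width was 458 bp, and over 500 bp away it was 486 bp. Widths over 1000 bp had the opposite order, with 6.38% within 500 bp and 5.32% beyond.

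In the closest flanking regions the summit leaned towards the retained neighbour. Within 500 bp, the summit lay nearer to the facing than to the opposite edge of the region in 59.2% of cases in Gel replicate 1 and 56.0% in replicate 2. Its mean position, measured from the facing edge as a share of the width, was 45.3% and 45.9%. Over 500 bp away the summit lay nearer to the facing edge in 48.4% and 50.1% of cases. The lean was thus found in both Gel libraries at short distance and in neither at longer distance. The distance at which the regions were divided was chosen after the values were seen. Summit positions were not measured in partly kept or retained regions, so the lean is not shown to be particular to lost ones.

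The strongest flanking lost regions, among those with a local background of at most 2 times that of the library, had heights of 9.32 to 11.3 in Gel replicate 1 and 6.77 to 11.9 in replicate 2, where the retained neighbours had medians of 10.4 and 10.3. The highest lay on chromosome 5 from 148990025 to 148990812, 166 bp from its neighbour, with heights of 10.6 and 11.9 and 767 and 769 bp under peaks in the Gel libraries. Its neighbour, from 148987360 to 148989858, had 2463 and 2499 bp in Gel, and 2452 and 2008 bp in the CuNZ@Gel libraries. That neighbour was thus barely narrower in CuNZ@Gel replicate 1 and clearly narrower in replicate 2. The next, on chromosome 4 from 32794547 to 32794727, was a narrow peak of 181 bp with heights of 11.3 and 11.2. Its neighbour, 594 bp away, had 1207 and 1347 bp in Gel, and 620 and 702 bp in CuNZ@Gel, with no overlap between the groups. On chromosome 10, the region from 128172850 to 128173400 had heights of 10.6 and 9.34, while the widths of its neighbour overlapped between groups (1157 and 947 bp against 1240 and 769 bp). On chromosome 7, the region from 45545379 to 45546069 had heights of 10.6 and 8.87, and its neighbour 961 and 934 bp against 721 and 728 bp.

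The other 6 of the 10 strongest lay on chromosomes 11, 6, 1, 2, 13 and 11. Their heights were 9.32 to 11.3 in Gel replicate 1 and 6.77 to 9.57 in replicate 2. Of the 10 neighbours, 8 were narrower in each CuNZ@Gel library than in either Gel library, a share near the 74.5% of all retained regions. The mean Gel heights of 5 further regions exceeded all of these, 1 on chromosome 9 from 123724523 and 4 on chromosome 8 between 20692811 and 21094336. Their local background was 5.90 to 18.4 times that of the library, and the authors' fold enrichment there was only 1.44 to 2.48. In all, 18 flanking regions (0.468%) had a local background over 2 times that of the library in a Gel library.

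The widest flanking lost regions exceeded 1000 bp in both Gel libraries, and their neighbours differed in how far they narrowed. The first lay on chromosome 8 from 108025053 to 108027614, 307 bp from a retained region of 4640 bp. It had 2369 and 2314 bp under peaks in Gel, at heights of 6.72 and 7.47. Its neighbour kept 3226 and 3075 bp in CuNZ@Gel from 4640 and 4565 bp in Gel, and was split into 3 peaks in each CuNZ@Gel library where each Gel library had 1. The second lay on chromosome 5 from 93412478 to 93414800, 302 bp from a neighbour that had 2540 and 1848 bp in Gel, and 1467 and 1724 bp in CuNZ@Gel. The third, on chromosome 2 from 26327012 to 26329246, lay 4309 bp away from a neighbour whose widths overlapped between groups (1639 and 1356 bp against 1421 and 1388 bp). The remaining ones, on chromosomes 2, 11 and 3, had 1422 to 1713 bp under peaks. Of the 6 neighbours, 5 were narrower in both CuNZ@Gel libraries, again near the 74.5% of all retained regions.

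The retained neighbours of lost regions were narrower in CuNZ@Gel, as retained regions were in general. Their median width under peaks was 1210 and 1197 bp in the Gel libraries, and 866 and 748 bp in the CuNZ@Gel libraries. The groups did not overlap. These medians averaged 1204 ± 9.19 bp over the Gel libraries and 807 ± 83.4 bp over those of CuNZ@Gel (SD, n = 2), a difference of -396.5 bp. The exact two-sided permutation p was 0.333, the smallest that 6 assignments of 2 against 2 libraries can give. The rule that picked the neighbours used the same contrast and was not reapplied for each assignment. This p is therefore a description. Of the 3801 neighbours, 2897 or 76.2% were narrower in each CuNZ@Gel library than in either Gel library, where all retained regions gave 74.5%. Only 32 (0.842%) were wider in both, against 1.26% of all retained regions. A share this near the background is not a result about the neighbours.

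Neighbours were wider in Gel than other retained regions, and relative to that width their narrowing was only slightly larger. The 18108 other retained regions had medians of 1062 and 1066 bp in Gel, and 775 and 679.5 bp in CuNZ@Gel. As a share of the Gel width, the median was 71.8% for neighbours and 72.9% for the others. Within 10 groups of like Gel width, the difference between neighbours and others in median width, averaged over groups, was 11.4 and 3.45 bp in the Gel libraries and -18.1 and -12.2 bp in the CuNZ@Gel libraries. Neighbours were thus slightly the wider ones in both Gel libraries and slightly the narrower ones in both CuNZ@Gel libraries, by -22.6 bp in all (exact two-sided permutation p = 0.333). This comparison was added after the data were seen. The share that was narrower in both CuNZ@Gel libraries was higher for neighbours in 6 of the 10 groups and lower in 4. The median share of the Gel width was lower for neighbours in 8 groups and higher in 2, by -1.67 percentage points on average. The median change in bp was more negative for neighbours in 9 groups and less so in 1, by -19.3 bp on average. Neighbours made up 13.9 to 15.3% of each of the 4 narrowest groups of retained regions and 23.9% of the widest.

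Neighbours were also more often listed as several peaks in CuNZ@Gel. More than 1 peak was listed within 11.3% and 10.6% of neighbours in the Gel libraries, and within 23.9% and 23.4% in the CuNZ@Gel libraries. In the other retained regions the shares were 8.38% and 8.16% in Gel and 19.3% and 19.6% in CuNZ@Gel. In both classes the CuNZ@Gel shares lay above the Gel shares. Summit heights of the neighbours had medians of 10.4 and 10.3 in Gel and 8.41 and 8.95 in CuNZ@Gel, without overlap. The same held for the other retained regions, with 9.97 and 10.0 in Gel and 8.12 and 8.55 in CuNZ@Gel.

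Where the narrowing occurred was read from the edges. For each library, the set-back is the distance from the edge of the merged retained region to the outermost peak edge of that library. Of the neighbours, 3573 had flanking lost regions on 1 side only. The edge facing the lost region was set back by 67.3 and 72.7 bp on average in the Gel libraries, and by 229 and 289 bp in the CuNZ@Gel libraries. The opposite edge was set back by 63.2 and 62.2 bp in Gel, and by 210 and 259 bp in CuNZ@Gel. Both edges had thus moved inward, by 189 bp on the facing and 172 bp on the opposite side. The difference of 17.0 bp gave an exact two-sided permutation p of 0.333, the smallest possible. The facing side was picked by peaks in Gel and their absence in CuNZ@Gel, and was not picked anew for each assignment. This p is therefore a description and no test of the difference. Without CuNZ@Gel replicate 1 or 2 the difference fell to 8.70 or 3.05 bp, and without Gel replicate 1 or 2 it was 33.1 or 31.9 bp. It turned to -20.5 bp among the 1379 neighbours with no region of any class within 5 kb on the opposite side. At the facing edge, 57.3% of neighbours had both CuNZ@Gel edges further in than both Gel edges, and at the opposite edge 58.7%, where all edges of retained regions gave 56.7%.

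The direction differed with the gap between the lost region and its neighbour. With a gap of up to 500 bp, the facing edge moved in by 164 bp and the opposite edge by 207 bp (n = 1080). The difference was -66.2 bp for gaps up to 250 bp and -15.5 bp for gaps of 250 to 500 bp, the latter with an exact permutation p of 0.667. With a gap over 500 bp the order was the reverse, 200 bp at the facing and 157 bp at the opposite edge (n = 2493). For gaps up to and over 500 bp, the exact permutation p (two-sided) was 0.333 each. These differences had the same sign in both CuNZ@Gel libraries. With nothing within 5 kb on the opposite side, the close pairs differed more, with 140.0 bp at the facing and 217 bp at the opposite edge (n = 464). In the wider pairs the shifts were then 182 and 173 bp (n = 915, exact two-sided permutation p = 0.667). So the facing edge of close pairs receded less in both comparisons, whereas in wide pairs the difference was 43.1 bp with any opposite side and 8.31 bp with a free one. This division by gap was made after the values were seen. Gap and set-back are both measured from the outer edge of the merged retained region. A peak that reached across the gap would have merged the lost region with its neighbour. The part of this in the differences was not tested, and the permutation p values here are descriptions too.

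**Figure D4:**
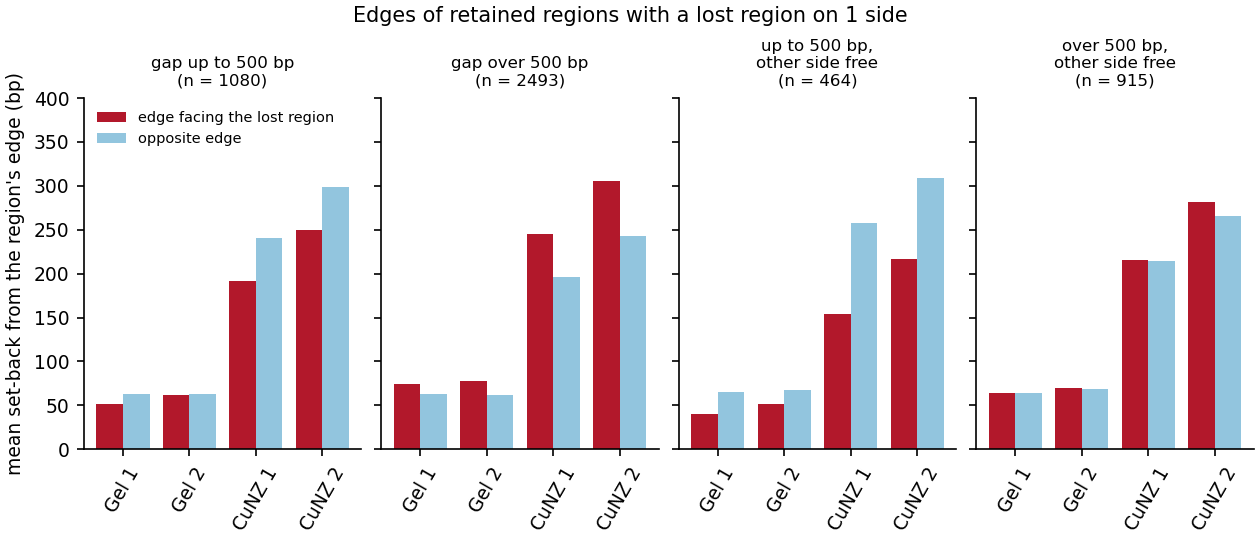
Mean set-back (y axis, bp) of the edge facing a flanking lost region and of the opposite edge, in each library, for retained regions with lost regions on 1 side only. In pairs up to 500 bp apart the facing edge was less set back than the opposite edge in both CuNZ@Gel libraries (191 against 240 bp and 249 against 299 bp), and in wider pairs it was the more set back one (245 against 197 bp and 306 against 242 bp); the panels with a free opposite side are the subset with no region within 5 kb there.

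A smaller recession of close facing edges was also found beside other classes of regions. Retained regions with a partly kept region (1 CuNZ@Gel peak) within 500 bp on 1 side showed shifts of 119 bp at the facing and 205 bp at the opposite edge. Beside another retained region the shifts were 62.0 and 217 bp. The facing edge beside a lost region thus moved most among the 3 classes (164 bp), and the opposite edge moved alike in all 3 (205 to 217 bp). In each class the exact permutation p of the difference between edges was 0.333, and differences between classes were not tested.

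The largest edge shifts exceeded 2000 bp. On chromosome 2, the retained region from 92430005 to 92433855 had 3759 and 3851 bp under peaks in Gel and 1167 bp in each CuNZ@Gel library. Its facing edge was set back by 52 and 0 bp in Gel, and by 2615 and 2647 bp in CuNZ@Gel, while the opposite edge was set back by at most 69 bp in any library. The lost regions beyond it, from 92435397 to 92435743 and from 92436654 to 92437122, had heights of 3.47 and 3.50, and of 4.55 and 5.14. In this place the retained region, at heights of 23.0 and 22.4 in Gel and 8.41 and 6.92 in CuNZ@Gel, was cut back from 1 side only.

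On chromosome 4, a cluster of wide Gel peaks was listed as short peaks in CuNZ@Gel. The retained region from 53832612 to 53836361 had 3750 and 3384 bp in Gel, and 339 and 161 bp in CuNZ@Gel. Its facing edge was set back by 0 and 55 bp against 2542 and 2522 bp, and its opposite edge by 0 and 311 bp against 869 and 1067 bp. Lost regions lay on its right, from 53838012 to 53838397 and from 53838841 to 53839094, and on its left, from 53831966 to 53832268. The latter was paired with the next retained region, from 53828327 to 53831778, which had 3240 and 3185 bp in Gel, and 670 and 458 bp in CuNZ@Gel. A last pair on the same chromosome joined the lost region from 46459285 to 46459964 to a retained region from 46450141 to 46457194. There the facing edge was set back by 153 and 0 bp in Gel, and by 1359 and 2862 bp in CuNZ@Gel. These 6 pairs are the extremes of all pairs and involve 4 retained regions.

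**Figure D5:**
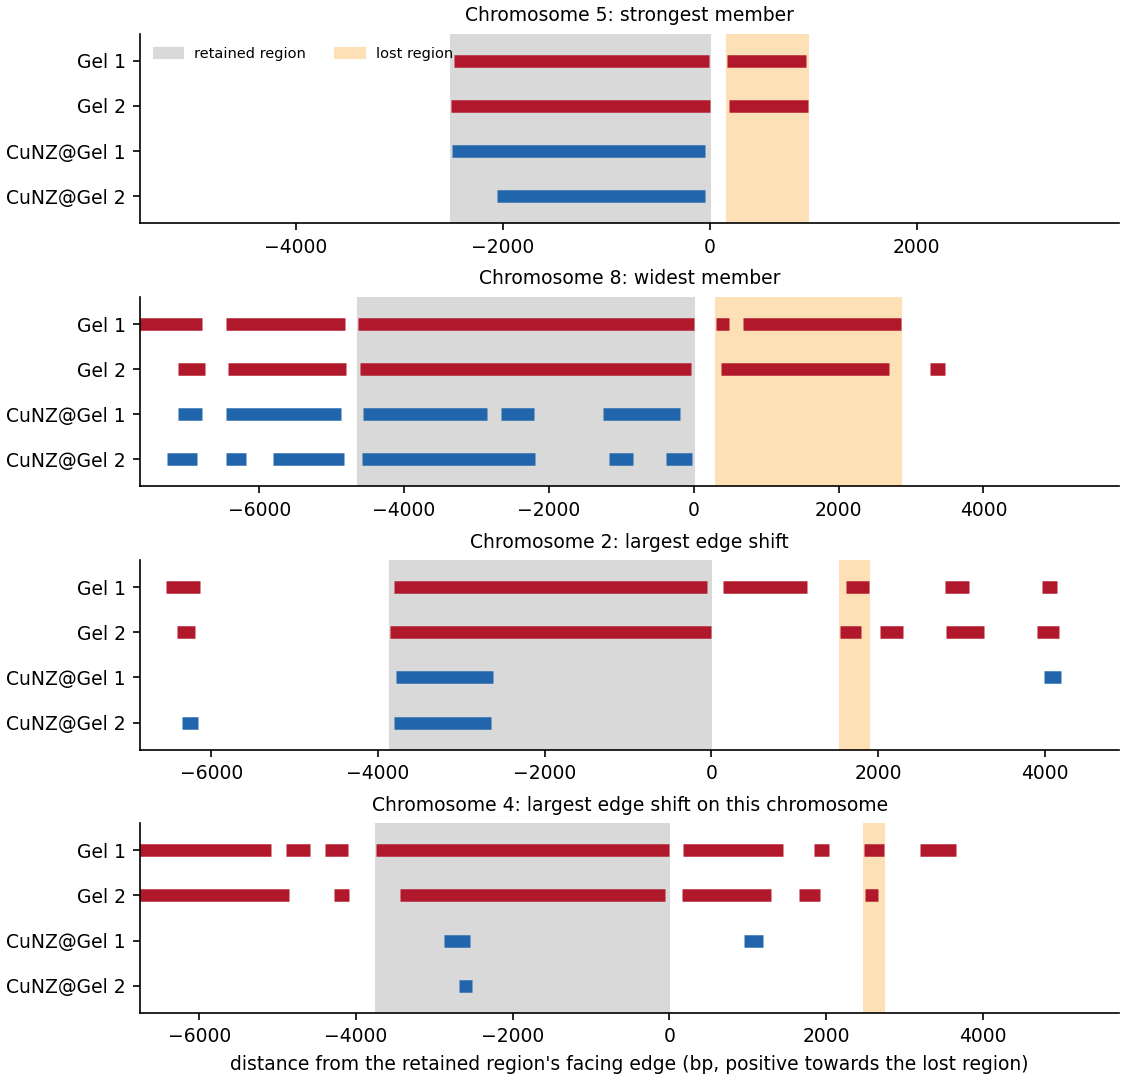
Peaks of the 4 libraries (rows) around 4 pairs of a flanking lost region (orange) and its retained neighbour (grey), by distance in bp from the facing edge of the retained region. The neighbour of the strongest lost region had 2452 and 2008 bp in CuNZ@Gel, whereas on chromosomes 2 and 4 the CuNZ@Gel peaks within the retained region ended over 2500 bp short of its facing edge; a CuNZ@Gel 1 peak lies beyond that edge in both views, and further lost regions are not shaded.

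Some retained regions were surrounded by lost ones. The 5 with the most had 4 flanking lost regions each, with heights of 3.03 to 6.54 in the Gel libraries, and 4 of the 5 were narrower in both CuNZ@Gel libraries, as were 74.5% of all retained regions. The widest, on chromosome 8 from 15043975 to 15048111, had all 4 lost regions on its left, at gaps of 131, 1237, 3179 and 4548 bp. Its own width was 3947 and 3788 bp in Gel, and 3191 and 3454 bp in CuNZ@Gel, so that most of it was kept. On chromosome 17, the region from 48067242 to 48068613 had 2 lost regions on each side and went from 1372 and 810 bp in Gel to 443 and 284 bp in CuNZ@Gel. The exception was on chromosome 4 from 45513623 to 45515422, with 1351 and 759 bp in Gel, and 786 and 1133 bp in CuNZ@Gel, where the groups overlapped. The other regions lay on chromosome 8 from 13388793, with 1801 and 2199 bp against 1346 and 833 bp, and on chromosome 19 from 4333595, with 860 and 911 bp against 472 and 163 bp.

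In bases, lost flanks and the narrowing of their neighbours were of like size. Flanking lost regions held 1.56 and 1.59 Mb under peaks in the Gel libraries, and none in CuNZ@Gel by their definition. The neighbours held 5.79 and 5.78 Mb in Gel and 4.34 and 3.92 Mb in CuNZ@Gel. The mean loss was 1.57 Mb in the flanks, or 409 bp per region, and 1.65 Mb in the neighbours, or 434 bp per region. Of both together, 48.8% was in the flanks. The 18108 other retained regions held 24.0 and 24.0 Mb in Gel and 18.3 and 16.5 Mb in CuNZ@Gel, so the narrowing was not particular to neighbours. Sums over separately called peaks move with how much each library called, and both CuNZ@Gel libraries called less.

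Flanking lost regions occurred on every autosome and on X, and there were no Gel-only regions on Y. Their share of the Gel-only regions of a chromosome ran from 32.6% of 313 on chromosome 16 (95% Wilson interval 27.6 to 38.0%) to 47.7% of 298 on chromosome 19 (42.1 to 53.3%). On X it was 47.5% of 99 (37.9 to 57.2%). These intervals cover counting error only.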

How the data were processed

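H3ac was profiled by immunoprecipitation and sequencing in 4 libraries, with 4 input libraries whose data were not used here. The tools named per the submitters' processing notes are MACS2 2.2.8, deepTools 3.5.6, SAMtools 1.17 and fastp, and the build is GRCm39. Not given in the sources used here are the aligner and how peaks were called. The authors deposited a peak list per library with positions, a score, a fold enrichment (a ratio to local background), and p and q values as −log10. The 2 group lists equal intersections of the replicate lists in 100% of entries and were not used.

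Peaks on the 19 autosomes, X and Y were merged where they overlapped by at least 1 bp. Whole summit fragments and local background were solved from the deposited fold and −log10 p, within a relative tolerance of 0.0001 for 100% of peaks. The commonest background of a list stands for depth. Neighbours are the nearest retained regions on either side of a flanking region, if within 5 kb. Analyses used Python 3.11.15, NumPy 2.4.6, pandas 2.3.3 and SciPy 1.17.1, and scripts were tested on simulated data. Single values went through a two-sided exact permutation test of the 6 ways to assign libraries. Neighbours and facing edges were kept as picked with the true labels, so these p values are descriptions.

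Regions named are the 10 strongest with local background of at most 2 times the library's, the 6 widest under Gel peaks, the 6 pairs with the largest facing-edge shift, the retained regions with most flanking regions (5 tied for the planned 3) and the 2 on either side of the limit. The 5 with higher local background were added after their values were seen. Regions and rules were chosen with earlier results of these data known. Gene positions, gene lists, marker genes and sequences were left out because the reference tables are of another build. Alternatives covered distance, threshold, list length, depth, merging, local background, the replicate number and each library left out.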

Additional observations from a re-analysis of the deposited data

Results flagged for a closer look

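Groups of 2 libraries are too small to show a single library standing apart. Unplaced scaffolds were kept out of every comparison. By the same rule, these scaffolds held 17 Gel-only regions among 127 merged regions, where the chromosomes held 9781 among 81544. The count was flagged only because it is above 0. Of the 17, 10 lay 5 kb or less from 1 of the 55 scaffold regions with peaks in all 4 libraries. On the chromosomes this held for 3845 of the 9781. There is no control sample for them, and they are given as values only.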

How the results depend on the processing

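The lists hold no reads below the calling threshold, so loss of a weak region cannot be told apart from a shallower library, and the CuNZ@Gel libraries were the shallower ones. The number of flanking lost regions was 2294 within 2 kb, 1887 with peaks at or above the median score of each list (the stricter threshold), 1107 with lists of equal length and 2129 when peaks were thinned to a common background. That thinning drops whole peaks and leaves widths as they were, and the Gel lists stayed longer (45437 and 47169 peaks against 36288 and 34693). Without Gel replicate 1, Gel replicate 2 or CuNZ@Gel replicate 1 it was 9933, 9528 or 6398, and over the 4 libraries left out in turn it ran from 5472 to 9933. Their share of Gel-only regions was 23.5% within 2 kb, 55.1% within 10 kb, 30.3% at the stricter threshold and 36.1 to 45.3% with a library left out. The median height of flanking less other Gel-only regions, 0 as deposited, was 0.23 at the stricter threshold, 0.11 with equal lists, 0.11 when merging needed 50% overlap, and 0 to 0.22 with a library left out. The width difference, 25 bp as deposited, was 17 bp within 2 kb, 19 bp at the stricter threshold, 9.50 bp with equal lists, 10 bp after thinning, 15 bp in bases under peaks and 17 to 26 bp with a library left out. The share of neighbours narrower in CuNZ@Gel was 77.9% with equal lists, 77.8% after thinning and 80.4 to 87.0% with a library left out, where fewer libraries have to be narrower. The narrowing of neighbours kept its direction in all 14 alternatives, at -427 to -332.5 bp with a library left out. One of the 14, its excess over other retained regions of like Gel width, was only -22.6 bp and was chosen after the data were seen. The difference between the facing and the opposite edge was 2.44 bp within 2 kb (exact permutation p = 0.667). It turned to -41.8 bp at the stricter threshold, -23.3 bp with equal lists and -20.5 bp with nothing near the opposite edge, and ranged from 3.05 to 33.1 bp with a library left out. The difference in lost share at matched strength turned to -0.214 points at the stricter threshold, and ranged from -0.0379 (without Gel replicate 1) to 0.971 points with a library left out. The cause of these changes was not tested. Alternatives chosen after seeing the data gave, for regions up to 500 bp from their neighbour, a height difference of 0.23, a width difference of 3 bp and an edge difference of -43.2 bp, or -77.3 bp with nothing near the opposite edge, and a height difference of 0.0844 from means. Width differences between replicates 1 and 2 of Gel and of CuNZ@Gel correlated at only 0.0455 over neighbours. A shift common to all regions does not enter this value, so whether the numbers pair libraries stays unknown. With a replicate block the narrowing was -396.5 bp and the edge difference 17.0 bp, each with an exact permutation p of 0.5, the smallest that 2 pairs allow. Within both numbers 83.1% of neighbours were narrower, by a looser criterion than being below both Gel libraries. The share of all retained regions was computed only as deposited (74.5%). The shares of narrower neighbours under the alternatives are therefore no result about the neighbours.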
